A study of Mus musculus with 12 samples.

Results

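Among 2462755 autosomal bins of 1 kb, 127 held excess reads in both libraries of the RGM embryonic stem cell line and no excess in the matching libraries of the Cas9 line. They were chosen by read density, which is the reads of a bin divided by the mean reads per autosomal bin of the same library, so that 1 is the average of that library. A member had a density of 2.5 or more in RGM anti-FLAG and RGM anti-GZF1 and of 1.2 or less in Cas9 anti-FLAG and Cas9 anti-GZF1. Merging members no more than 5 kb from each other gave 119 regions, of which 112 were 1 bin, 6 held 2 member bins and 1 held 3. The choice used these 4 libraries, so their values at the members are a description and support no difference between the lines.

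The series mapped GZF1 in mouse embryonic stem cells by sequencing immunoprecipitated chromatin that had been fixed with formaldehyde and cut with micrococcal nuclease, and its title sets the protein beside Zfp57 and Dlk1-Dio3 imprinting. RGM is a line labelled 129xCAST, and Cas9 is a line labelled Cas9-GFP whose strain is not given. The RGM libraries were wild-type cells with anti-GZF1 and clone 56, which overexpresses Gzf1-Flag from an introduced construct, with anti-FLAG. Those of Cas9 were wild type with anti-GZF1, the Gzf1-Flag overexpressing clone 35 with anti-FLAG, a control with anti-GZF1, a Gzf1 knockout with anti-GZF1, wild type with an antibody to acetylated H3K27, and input chromatin without antibody. Each group is 1 library, and each overexpressing line is 1 clone, so no test between groups was possible. The 95% intervals of densities and ratios given below cover the error of counting alone. They can be too narrow even for that, since reads amplified from 1 molecule are not independent. Intervals of medians and shares treat member bins as independent, although 50 lie on chromosome 6 and some adjoin. They describe the bins and do not replace replicates. The table used here holds 8 of the 12 libraries, and the RGM control with anti-FLAG is among the 4 not analysed here. No RGM input was used, so cell line, strain and library cannot be told apart in any difference between RGM and Cas9.

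GZF1 is a nuclear protein with a BTB domain and a row of C2H2 zinc fingers, which in this class of proteins read DNA sequence. Zfp57 is a KRAB zinc-finger protein that binds a methylated motif and keeps imprints through early development, and Meg3 is the maternally expressed long non-coding RNA of the Dlk1-Dio3 cluster. Read density in a bin can carry antibody signal, but it also follows the number of DNA copies per cell, how well reads map there and how the nuclease cuts. Tandem gene families such as clustered zinc-finger genes or T cell receptor segments are places where strains are known to differ in copy number and where short reads map poorly.

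Promoter windows are shown here because a near-identical copy of a sequence elsewhere bears on where a short read can be placed. Of the 126 genes within 5 kb of a member, 94 were found in a RefSeq promoter table (GRCm38.p6, the assembly known as mm10) with 140 windows. Of these windows 2, or 1.43%, had 50% or more of their 24-base words in the promoter of another gene. Of all 31396 autosomal windows it was 3.88%. A window belongs to a gene within 5 kb of a member but can itself lie far away. At Camta1 the window starts at chr4:151861719 and a member bin at chr4:151196001. The share thus does not describe the sequence at the members. The 2 windows with such shared words belong to Gm14325 on chromosome 2 and Gm11127 on chromosome 17. Each is printed with its closest match, as the 250 bases upstream of the annotated start. Capitals mark bases inside 24-base words that the pair shares.
Gm14325 (chr2:177840337-177840586, minus strand): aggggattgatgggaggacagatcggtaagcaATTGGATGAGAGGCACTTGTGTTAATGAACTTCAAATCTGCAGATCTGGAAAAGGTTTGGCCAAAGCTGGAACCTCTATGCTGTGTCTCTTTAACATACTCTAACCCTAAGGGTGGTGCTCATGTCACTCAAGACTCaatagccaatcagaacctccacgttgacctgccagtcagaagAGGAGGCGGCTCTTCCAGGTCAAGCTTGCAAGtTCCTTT
Zfp931 (chr2:178078426-178078675, minus strand): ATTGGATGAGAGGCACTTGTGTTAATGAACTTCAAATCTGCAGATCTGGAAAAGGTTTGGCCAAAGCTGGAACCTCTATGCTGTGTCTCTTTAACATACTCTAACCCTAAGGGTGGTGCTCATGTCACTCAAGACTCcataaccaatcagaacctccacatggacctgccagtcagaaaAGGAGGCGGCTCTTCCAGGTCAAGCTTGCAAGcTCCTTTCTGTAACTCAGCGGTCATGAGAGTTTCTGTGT
Gm11127 (chr17:36058372-36058621, minus strand): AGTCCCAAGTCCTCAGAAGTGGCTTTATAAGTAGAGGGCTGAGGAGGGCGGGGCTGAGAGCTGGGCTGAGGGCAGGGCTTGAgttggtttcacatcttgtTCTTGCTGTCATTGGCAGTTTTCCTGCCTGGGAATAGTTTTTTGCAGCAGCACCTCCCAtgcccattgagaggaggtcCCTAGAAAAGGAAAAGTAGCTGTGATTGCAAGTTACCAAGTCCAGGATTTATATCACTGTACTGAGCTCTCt
Gm7030 (chr17:36129426-36129675, minus strand): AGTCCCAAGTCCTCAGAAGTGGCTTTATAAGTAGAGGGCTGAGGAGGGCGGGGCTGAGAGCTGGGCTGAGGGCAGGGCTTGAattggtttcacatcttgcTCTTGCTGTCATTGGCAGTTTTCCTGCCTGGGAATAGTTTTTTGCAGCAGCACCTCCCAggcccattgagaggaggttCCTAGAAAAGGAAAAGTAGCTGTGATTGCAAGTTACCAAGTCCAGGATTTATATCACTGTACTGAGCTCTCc
The only promoter window to overlap a member bin is that of Gm52874, a long non-coding RNA gene next to the member at chr6:119315001-119316000, which itself overlaps the calcium channel subunit gene Cacna2d4 and Lrtm2. In its window the capitals mark the 150 bases that lie inside that bin.
Gm52874 (chr6:119314901-119315150, minus strand): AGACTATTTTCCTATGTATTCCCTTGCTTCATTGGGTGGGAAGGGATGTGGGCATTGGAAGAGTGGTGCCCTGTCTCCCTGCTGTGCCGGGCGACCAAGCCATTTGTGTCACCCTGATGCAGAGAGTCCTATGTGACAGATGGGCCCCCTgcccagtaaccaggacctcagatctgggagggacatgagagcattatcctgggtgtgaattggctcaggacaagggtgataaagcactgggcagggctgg
In the Gm14325 window 175 of 250 bases were in shared words, and in Gm11127 it was 212 of 250. The bins holding these upstream windows were not themselves high. At Gm14325 the density was 0.786 in RGM anti-FLAG and 0.929 in RGM anti-GZF1, and at Gm11127 it was 1.21 and 0.929. Sequences of the member bins themselves were not used here.

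Depth set how closely a bin could be measured. The libraries held 10.1 to 94.2 M reads, and the mean per autosomal bin was 26.5 reads in RGM anti-FLAG, 8.61 in RGM anti-GZF1, 27.2 in Cas9 anti-FLAG, 23.6 in Cas9 anti-GZF1 and 3.93 in the input. A density of 2.5 was 66.2 reads in RGM anti-FLAG but 21.5 reads in RGM anti-GZF1. As a check of cell type, the stem cell transcription factor gene Pou5f1 had an H3K27ac density of 2.01 (1.71 to 2.35), but the input had 2.04 (1.45 to 2.77), and Sox2 had 2.32 (1.96 to 2.72) against 2.58 (1.85 to 3.51). At the homeobox gene Nanog the values were 1.74 (1.52 to 1.99) and 1.78 (1.35 to 2.32). H3K27ac at these genes was thus not above input, which limits what its values at members can show. Over Gzf1 itself (chr2:148679384-148692949) the knockout had 0.688 (0.614 to 0.768) and the control 0.903 (0.821 to 0.99), but the 10 Mb around it had medians of 0.577 and 0.811, so these reads do not check the deletion.

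**Figure D1:**
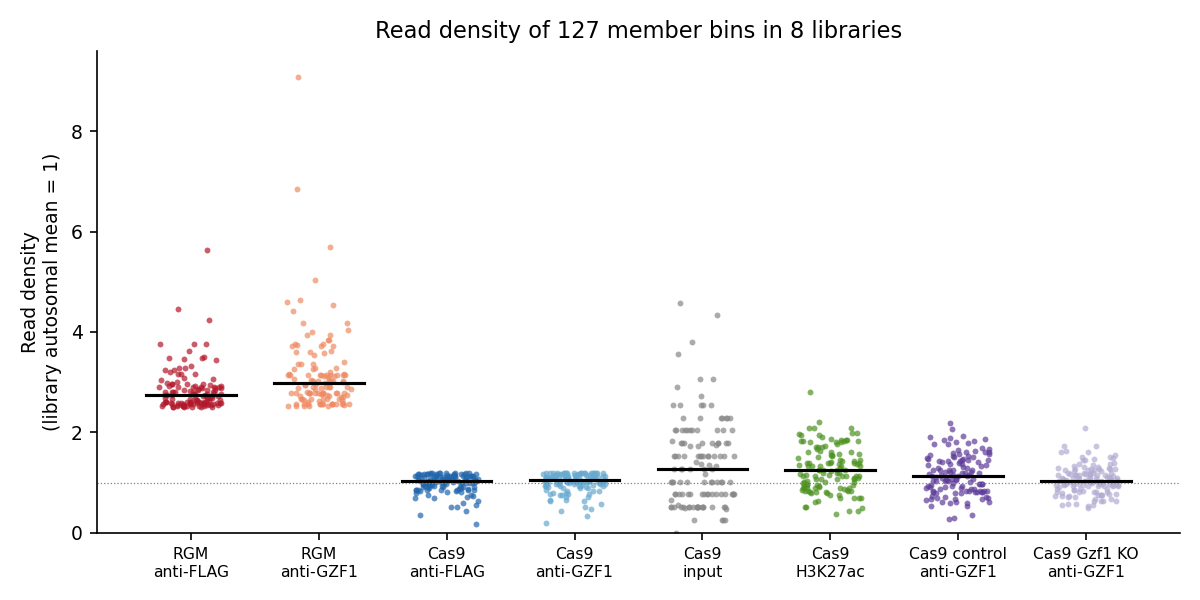
Read density of the 127 member bins in the 8 libraries, with 1 point per bin and a bar at the median. The vertical axis is reads divided by the autosomal mean of the library. The first 4 libraries are separated by construction, and the other 4, which took no part in the choice, have medians of 1.03 to 1.27.

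At the members the median density was 2.74 in RGM anti-FLAG (range 2.501 to 5.64) and 2.97 in RGM anti-GZF1 (2.52 to 9.07). In Cas9 anti-FLAG it was 1.03 and in Cas9 anti-GZF1 1.05. Most members therefore lie just above the RGM limit, and few stand far from it. Both RGM libraries reached 2.5 in 38080 bins, 1.55% of all, and the further demand for low Cas9 values left 0.00516%. With the lines exchanged the same limits found 67 bins, 0.00272%, in 63 regions. These counts have no replicate, and the libraries differ in depth, with 8.61 reads per bin in RGM anti-GZF1 and 23.6 in Cas9 anti-GZF1; the part of depth in the counts was not tested.

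The values next to the limits show how little separates members from other bins. In RGM anti-FLAG the 3 lowest members had 2.501, 2.505 and 2.507, the last inside Megf6, and the 3 bins that only this library kept out had 2.499 in Dnajc12, 2.498 in Thumpd3 and 2.494 in Rap1gap2. For RGM anti-GZF1 the lowest members had 2.52, 2.53 in Nfasc and 2.53 in Oxtr, and the bins outside had 2.497, 2.491 and 2.480. At the Cas9 anti-FLAG ceiling the members had 1.198, 1.198 in Agrn and 1.195 in Exoc6b, and the bins outside had 1.2003 in Atp2b2, 1.2003 and 1.208. In Cas9 anti-GZF1 they were 1.198 in Eefsec, 1.198 in B4galt7 and 1.196 in Grm4, against 1.20002 in Ppp1r9a, 1.202 in Sgce and 1.209. These gaps are far smaller than the counting error of any 1 bin.

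The highest member lay in Tcra, the T cell receptor alpha locus that lymphocytes rearrange, and inside the long non-coding RNA gene Gm30392 (chr14:53935001-53936000). It held 149.3 reads in RGM anti-FLAG, a density of 5.64 (4.77 to 6.62), and 78.1 reads in RGM anti-GZF1, 9.07 (7.17 to 11.3). Cas9 anti-FLAG held 15 reads, 0.551 (0.309 to 0.91), and Cas9 anti-GZF1 25.65 reads, 1.09 (0.708 to 1.6). The libraries outside the choice were near average, with 1.27 (0.414 to 2.97) in the input, 0.693 (0.346 to 1.24) in H3K27ac, 1.15 (0.826 to 1.56) in the control library and 1.05 (0.726 to 1.46) in the knockout. The low value in Cas9 anti-FLAG and the high RGM values are those the bin was chosen for. The surrounding 1 Mb was lower in RGM than in Cas9, with medians of 0.831 and 0.764 against 1.05 and 1.10. Over the 10 kb on each side, the bin included, RGM had 0.932 and 1.19 and Cas9 0.544 and 0.582.

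The next highest by the lower RGM library lay in or near zinc-finger loci. At chr4:146053001-146054000, near the predicted gene Gm13036, the RGM densities were 4.24 (3.49 to 5.10) and 5.69 (4.21 to 7.52), and the Cas9 ones 0.515 (0.281 to 0.864) and 1.12 (0.737 to 1.64). Its neighbour in the same region, chr4:146050001-146051000, had 3.61 and 2.97 against 0.787 and 0.890. At Gm14325, a predicted protein-coding gene on chromosome 2 whose upstream sequence is printed above beside that of Zfp931, the bin chr2:177835001-177836000 had 3.77 (3.07 to 4.59) and 4.01 (2.78 to 5.59) in RGM. There Cas9 anti-FLAG had 1.19 (0.815 to 1.68) and Cas9 anti-GZF1 1.02 (0.652 to 1.51). Over the whole Gm14325 gene RGM had 1.602 and 1.563 and Cas9 0.553 and 0.617, so the higher RGM value extended over the gene.

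Other members high in RGM included chr17:27313001-27314000, near the microRNA gene Mir7214, with RGM densities of 3.76 and 3.71. Without a gene within 5 kb were chr2:167407001-167408000, with 3.48 and 3.28, and chr17:27294001-27295000, with 3.24 and 3.25. The gene-free bins described next were picked for their low Cas9 values, and not all were among the highest in RGM. The bin chr10:126511001-126512000 had 3.48 (2.81 to 4.27) in RGM anti-FLAG and 6.85 (5.22 to 8.84) in RGM anti-GZF1. In Cas9 it was 0.693 (0.416 to 1.08) with anti-FLAG and 0.195 (0.0595 to 0.471) with anti-GZF1, and 0.255, 0.756, 0.702 and 0.624 in input, H3K27ac, control and knockout. Its 10 kb on each side, the bin included, had 0.882 and 0.986 in RGM and 0.728 and 0.699 in Cas9. The bin itself held 92.15 of the 489.95 RGM anti-FLAG reads of this stretch. With RGM anti-GZF1 it held 59 of 178.35, so the rest of the stretch was lower than these RGM values. On chromosome 11 the region chr11:88891001-88896000 held 2 members with 2.92 and 2.97 in the first and 2.75 and 4.53 in the second. Cas9 values there were 0.441 and 0.575 in the first and 0.184 and 0.329 in the second, the second from 5 and 7.75 reads. The ratio of the RGM mean to the Cas9 mean in this second bin, 14.2, was the highest of all members.

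At chr12:12927001-12928000, also without a gene nearby, RGM had 3.32 (2.67 to 4.10) and 2.52 (1.57 to 3.83) and Cas9 0.358 (0.170 to 0.664) and 0.424 (0.203 to 0.780). All other Cas9 libraries were low here too, with 0.255 in the input, 0.378 in H3K27ac, 0.280 in the control library and 0.712 in the knockout. This bin and the second bin on chromosome 11 were the 2 members below 0.5 in both Cas9 libraries of the choice. At chr13:23404001-23405000, beside the transfer RNA genes n-TAagc12 and n-TVaac2, RGM had 3.76 and 3.16 and Cas9 0.588 and 1.02. Its input held 12 reads, a density of 3.06 (1.58 to 5.34), so the Cas9 input was high at this bin. The Cas9 anti-FLAG and anti-GZF1 values were kept low by the choice, so their contrast with the input is not informative.

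The Meg3 member is the only one inside an imprinted gene of the title's domain. The bin chr12:109542001-109543000 lies inside Meg3 (chr12:109540996-109571729). RGM anti-FLAG held 76.95 reads, 2.91 (2.29 to 3.63), and RGM anti-GZF1 43.4 reads, 5.04 (3.65 to 6.78), against 0.976 (0.641 to 1.42) and 1.04 (0.667 to 1.54) in Cas9. In the libraries outside the choice it had 1.27 (0.414 to 2.97) in the input, 1.85 (1.24 to 2.65) in H3K27ac, 1.86 (1.44 to 2.36) in the control library and 0.547 (0.324 to 0.864) in the knockout. The control and the wild type of the Cas9 line, both with anti-GZF1, thus had 1.86 and 1.04. The choice held the wild-type value at 1.2 or less but not that of the control. Their contrast therefore does not settle whether these libraries differ here. The surrounding 1 Mb had medians of 1.11 and 0.848 in them. Within 10 kb on each side RGM had 1.70 and 1.62 and Cas9 1.03 and 0.864, and over all of Meg3 1.55 and 1.52 against 0.995 and 0.883.

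The region with most members was in Sema5b, which encodes a transmembrane semaphorin that guides axons. Its 3 bins within chr16:35547001-35557000 had RGM anti-FLAG densities of 2.84, 2.58 and 3.15 and RGM anti-GZF1 densities of 2.79, 2.66 and 2.79. In Cas9 they had 1.07, 0.993 and 1.10 with anti-FLAG and 1.19, 0.636 and 0.774 with anti-GZF1. All 10 bins of this stretch together had 2.42 (2.24 to 2.62) and 2.17 (1.87 to 2.51) in RGM and 1.15 (1.03 to 1.29) and 1.17 (1.03 to 1.31) in Cas9, and the whole gene 1.78 and 1.71 against 1.19 and 1.33. The excess was therefore broad and moderate here. Epha8, an ephrin receptor tyrosine kinase gene on distal chromosome 4, held 2 members with RGM anti-GZF1 densities of 4.18 each and RGM anti-FLAG densities of 2.90 and 2.57. Across that gene RGM had 2.14 and 2.44 and Cas9 1.18 and 1.38.

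**Figure D2:**
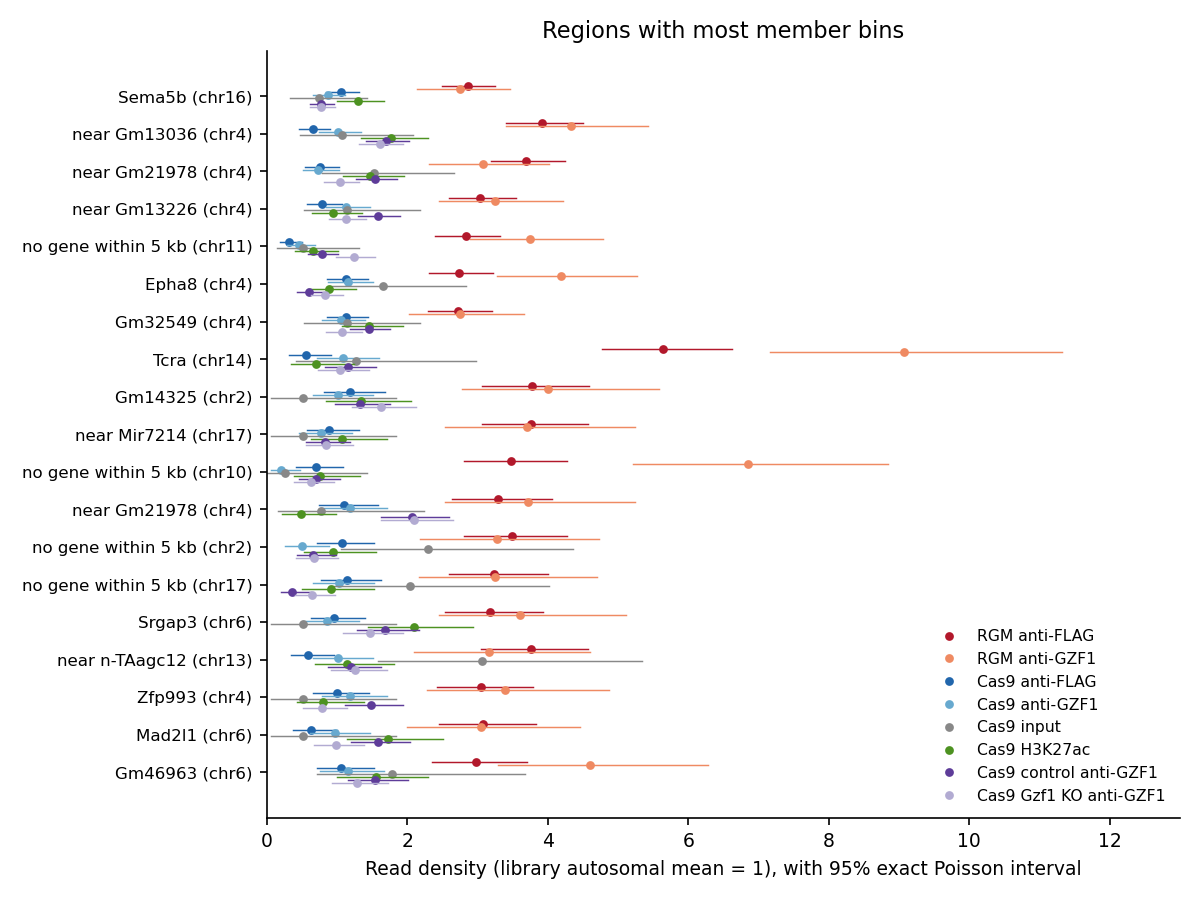
Read density with 95% exact Poisson intervals (horizontal axis, autosomal mean 1) in all 8 libraries for 19 of the 20 regions with most member bins, ties ordered by the lower RGM library. Values are over the member bins of each region. The Tcra region at 5.64 and 9.07 and the chromosome 10 region at 3.48 and 6.85 are farthest from the Cas9 libraries.

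Members were not spread evenly over the genome. Chromosome 6 held 50 of the 127, 39.4%, with 6.08% of the bins. Distal chromosome 4, beyond 120 Mb, held 26, 20.5%, with 1.48% of the bins, and the rest of chromosome 4 held none. Chromosome 2 held 8 (6.30%, with 7.39% of the bins), chromosome 16 held 7 (5.51%, 3.99%), chromosome 12 held 6 (4.72%, 4.88%), and chromosomes 8 and 15 held none. Both stretches were themselves higher in RGM across bins that are no members. The chromosome 6 median was 1.28 in RGM anti-FLAG and 1.16 in RGM anti-GZF1 against 0.993 and 0.975 in Cas9, a ratio of 1.24, which was the highest of the 19 autosomes. Of all chromosome 6 bins 4.08% reached 2.5 in both RGM libraries, against 1.55% over all autosomes. On chromosome 4 the ratio was 0.89 and 0.84 in the 10 Mb windows from 100 and 110 Mb and rose to 1.16, 1.28, 1.15 and 1.30 in the 4 windows beyond 120 Mb.

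Chromosome 5 gave the reverse picture. Its ratio of RGM to Cas9 medians was 0.80, it held 1 member, near the pseudogene Gm6089, and it held 19 of the 67 bins found with the lines exchanged, whereas chromosome 6 held none of those. Whether these chromosome-wide ratios account for the members there was not tested. When each library was scaled to the median of the bin's own chromosome, 165 bins met the limits, 0 of them on chromosome 6, and 34 of the 127 members were among them, 26.8% of the members and 20.6% of the 165.

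**Figure D3:**
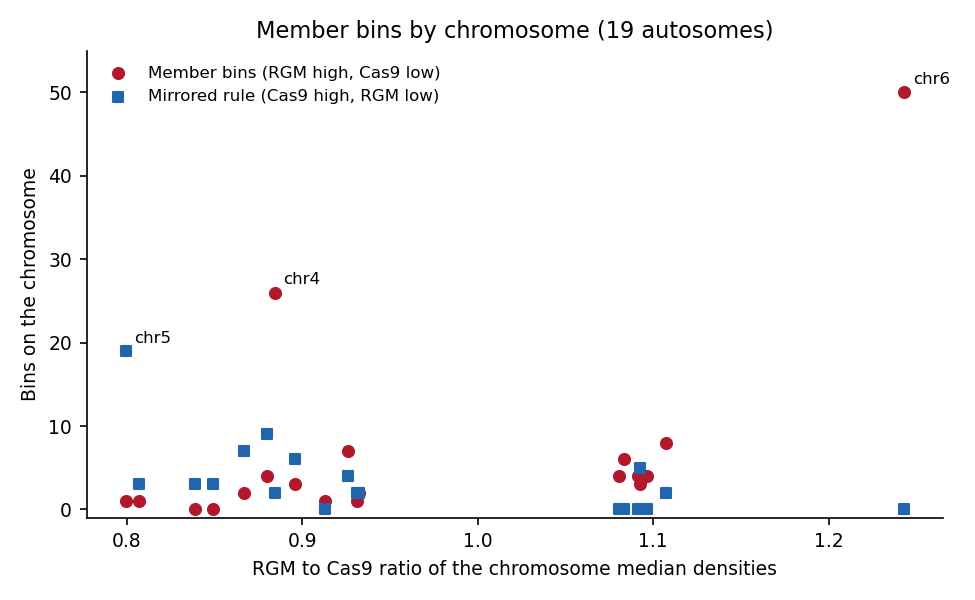
Number of member bins (circles) and of bins found with the lines exchanged (squares) on each of the 19 autosomes, against the ratio of the RGM to the Cas9 chromosome median. Chromosome 6 lies alone at a ratio of 1.24 with 50 member bins, and chromosome 5 lies lowest at 0.80 with 19 exchanged bins and 1 member.

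On chromosome 6 the members lay in 50 separate regions, 40 of them overlapping a gene, and 19 fell between 80 and 90 Mb, where the window ratio was 1.38. They included Eefsec, which encodes the elongation factor for selenocysteine, with 3 overlapping regions and 1 more nearby. Mindy4, a deubiquitinase gene, Chchd6, a mitochondrial cristae gene, Iqsec1, an Arf exchange factor gene, and Srgap3, a gene of slit-robo signalling, had 2 each. Smo, the signal transducer of the hedgehog pathway, Wnt7a, a Wnt ligand gene, Emx1, a forebrain homeobox gene, and Oxtr, the oxytocin receptor gene, had 1 each. RGM densities on this chromosome reached 3.51 with anti-FLAG and 4.60 with anti-GZF1, the latter at Gm46963 (chr6:86621001-86622000). At the spindle checkpoint gene Mad2l1 the bin had 3.08 and 3.05 in RGM against 0.625 and 0.975 in Cas9.

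On distal chromosome 4 the 26 members made 21 regions. These included Runx3, a transcription factor gene, Ephb2 and Epha8, both ephrin receptor genes, Camta1 with 2 regions, Agrn, which encodes the synapse organizer agrin, and the cluster of zinc-finger and predicted genes around Zfp993. The 51 members elsewhere included Notch2, a Notch receptor gene, Akt1, a growth signalling kinase gene, Lrp5, a Wnt co-receptor gene, and 5 bins between 30 and 40 Mb of chromosome 2, of which Lamc3, Dnm1, Pip5kl1 and Ttc16 held 4.

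The RGM density dropped at the edge of a member and then fell only slowly with distance. Members had RGM medians of 2.74 and 2.97, which the choice held high. Bins 1 kb from the region edge had medians of 2.03 and 1.90 in RGM and 1.204 and 1.357 in Cas9, where the ratio of RGM to Cas9 medians was 1.54. At 10 kb RGM had 1.88 and 1.74, and at 100 kb 1.67 and 1.51 against 1.25 and 1.26 in Cas9, a ratio of 1.27. Of the 238 bins at 1 kb, 27 reached 2.5 in both RGM libraries, and none of these was a member because a Cas9 library exceeded 1.2 in each. The bins around members thus also had more reads in RGM than in Cas9, by a smaller factor.

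**Figure D4:**
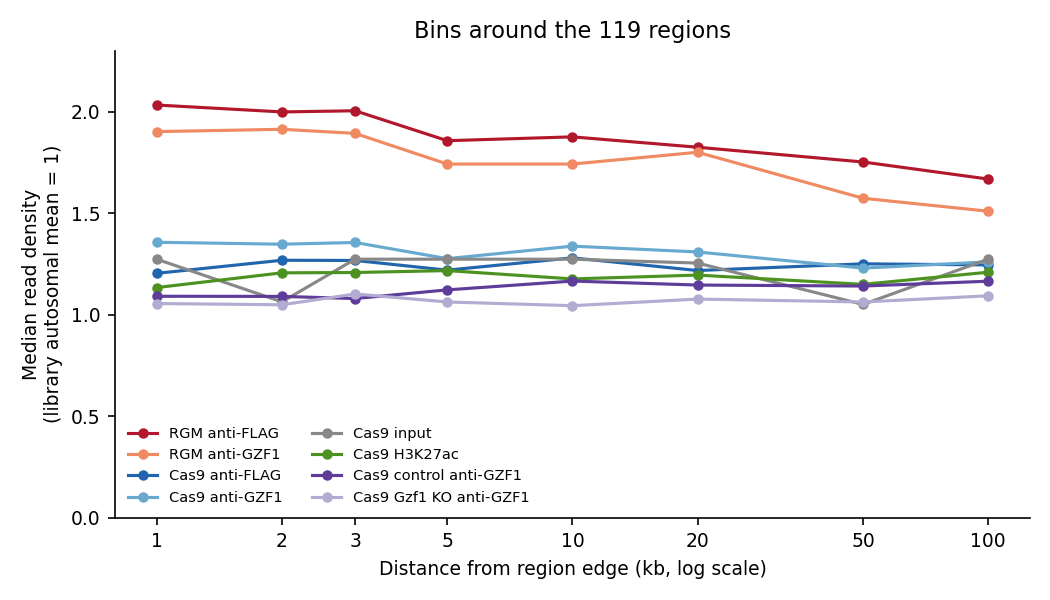
Median read density (vertical axis, autosomal mean 1) of bins at 1 to 100 kb from the edges of the 119 regions (horizontal axis, log scale), with 1 line per library. Both RGM lines lie above the Cas9 lines at every distance and come down from 2.03 and 1.90 at 1 kb to 1.67 and 1.51 at 100 kb.

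The same held over the surrounding 1 Mb. The ratio of the RGM to the Cas9 median there was above 1 for 110 of the 127 members, 86.6%, against 40.1% of all bins, and above 1.2 for 85, 66.9%, against 9.56%, in windows that include the bin itself. With the 10 kb around the member left out, 86 were above 1.2, and the median was 1.38 for members on chromosome 6, 1.23 on distal chromosome 4 and 1.18 elsewhere. The members' own ratio of RGM to Cas9 had a median of 2.88 and ran from 2.17 to 14.2. In both RGM libraries 15 members reached 2.5 times the median of their own surrounding 1 Mb. They were the Tcra, Meg3, Gm14325, Gm6089, Zyx, chromosome 10 and transfer RNA bins and 8 bins of the chromosome 4 zinc-finger cluster, Zyx being the gene of the focal adhesion protein zyxin. Gm14325 and the cluster lie where the surrounding median was below 0.6 in all RGM and Cas9 libraries of the choice, so there the factor has a small base.

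**Figure D5:**
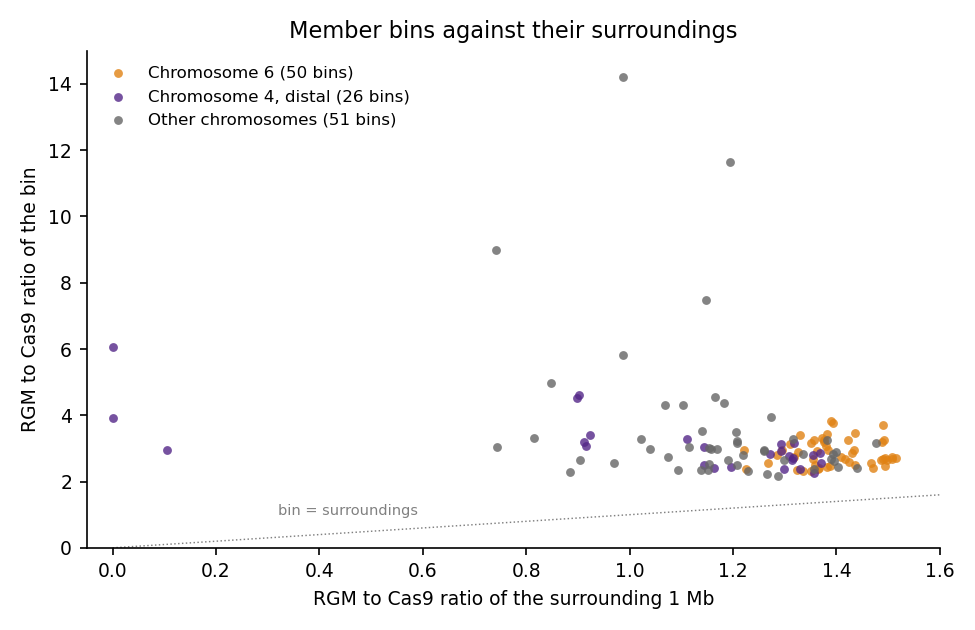
Ratio of the mean RGM to the mean Cas9 density in each of the 127 member bins (vertical axis) against the same ratio of the medians in the surrounding 1 Mb (horizontal axis), with the line of equal values dotted. Chromosome 6 members crowd at surrounding ratios of 1.22 to 1.52, and the highest bins, at 14.2 and 11.6, lie on chromosomes 11 and 10; points at a horizontal value of 0 have an RGM median of 0 around them.

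The cluster of zinc-finger and predicted genes on chromosome 4 was examined from its first to its last member (chr4:145556001-146912000, 1356 bins). It held 8 members in 5 regions, near Gm21978, Gm13226 and Gm13036 and in Zfp993 (chr4:146512849-146991471). Both RGM libraries reached 2.5 in 25 of its bins and both Cas9 libraries did in 21, so high bins were about as many in either line. Of the whole, 427 bins held no read in any of the 8 libraries. The mean density over this span was 0.276 and 0.294 in RGM and 0.286 and 0.293 in Cas9, and it was 0.283 in the input and 0.302 for H3K27ac. In the control it was 1.28 and in the knockout 1.30.

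The control and knockout libraries thus stood apart from the other 6 in this cluster. In 180 of its bins both held reads where the other 6 held none, and this was so in 38572 bins of all autosomes, 1.57%. No member could be among these bins, because the choice required high values in both RGM libraries. Over Tcra the same was seen, with 1.09 and 1.06 in control and knockout, 0.418 and 0.430 in RGM and 0.623 to 0.642 in the other Cas9 libraries. How reads with more than 1 possible position were treated is not given in the sources used here, and whether it differed between these libraries was not tested. Comparisons of control and knockout with the other libraries at members in repeated sequence carry this limit.

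Across the 4 Cas9 libraries that took no part in the choice, members were slightly above the typical bin but close to their own surroundings. The surrounding 1 Mb had medians of 1.27 in the input, 1.18 in H3K27ac, 1.15 in the control library and 1.07 in the knockout. The median at members was 1.27 in the input (95% interval of the median 1.02 to 1.53), 1.25 in H3K27ac (1.13 to 1.37), 1.13 in the control library (1.03 to 1.25) and 1.03 in the knockout (0.978 to 1.10), and over all bins it was 0.828, 0.945, 0.979 and 0.972. Above 1.2 were 68 members in the input, 53.5% against 35.9% of all bins, and 65 for H3K27ac, 51.2% against 31.1%. In the control 55 were above 1.2, 43.3% against 26.1%, and in the knockout 32, 25.2% against 26%. The excess of 2.5 or more that RGM showed was seen in 13 members in the input (10.2%, all bins 6.13%), 1 for H3K27ac (0.787%, all bins 1.98%), 0 in the control library (all bins 0.247%) and 0 in the knockout (all bins 0.292%). A count of 0 of 127 has an exact binomial upper limit of 2.86%, and the intervals were 5.56% to 16.9% in the input and 0.0199% to 4.31% for H3K27ac. All 4 intervals include the share of all bins.

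Densities below 0.5 were also counted. They were found at 7 members in the input (5.51%, all bins 24.8%), 4 for H3K27ac (3.15%, all bins 18.2%), 3 in the control library (2.36%, all bins 5.8%) and 1 in the knockout (0.787%, all bins 6.34%). The exact binomial interval of the control share, 0.49% to 6.75%, includes the share of all bins. In the input the interval was 2.24% to 11.03%, for H3K27ac 0.865% to 7.87% and in the knockout 0.0199% to 4.31%. Each of these lay below the share of all bins. Bins with few RGM reads could not be members, and how far this lowered the shares was not tested. The highest inputs were 4.58 near 1700029M20Rik on chromosome 4, 4.33 at chr2:30463001-30464000, 3.80 at chr12:85523001-85524000 and 3.57 at chr6:90539001-90540000. Next came 3.06 both at the transfer RNA bin and in Grm4, a glutamate receptor gene, the first at 12 reads and the second also at 12. The lowest was Oxtr with 0 reads, for which the upper end of the exact Poisson interval was a density of 0.94. The gene-free bins chr12:12927001-12928000, chr10:126511001-126512000 and chr11:88895001-88896000 and the first bin of the Gm32549 region on chromosome 4 held 1 read each, a bin near Eefsec 1.85 and a bin in Frmd4b 1.9. The single member at 2.5 or more for H3K27ac, 2.80 (2.04 to 3.75), was at chr6:31077001-31078000, with no gene within 5 kb.

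Control values followed the chromosome. On chromosome 6, whose control median was 1.25 over all its bins, 34 of 50 members were above 1.2 in the control, 68% against 55.4% of chromosome 6 bins. On other chromosomes it was 21 of 77, 27.3% against 24.2%. The control median was 1.40 at chromosome 6 members, 1.05 on distal chromosome 4 and 0.867 elsewhere. Chromosome 6 was therefore higher both in RGM and in this Cas9 control than in the other Cas9 libraries, with chromosome medians of 1.06 in the knockout, 1.02 in the input and 1.00 for H3K27ac.

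Knockout was compared with control at the members since this contrast differs, by the labels, in Gzf1 itself. The ratio of knockout to control density had a median of 0.944 at members and 0.999 over all bins. Its interval, exact binomial, lay below 1 in 15 members, 11.8% against 6.83% of all bins, and above 1 in 7, 5.51% against 6.79%. On chromosome 6 the median was 0.754, and 11 of 50 were below 1, 22% against 15.1% of chromosome 6 bins, with 0 above against 1.8%. On other chromosomes 4 of 77 were below, 5.19% against 6.3%, and 7 above, 9.09% against 7.11%. The shares of members below 1 had exact binomial intervals of 6.76% to 18.7% in all, 11.5% to 36.0% on chromosome 6 and 1.43% to 12.8% elsewhere. Each interval includes its background, and the chromosome 6 median was itself lower in knockout than in control.

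Single members gave the ends of this range. The lowest ratio was at Meg3, 0.294 (0.165 to 0.505), from 18 knockout and 66.45 control reads, where the surrounding 1 Mb had medians of 0.878 and 1.11. At chr6:88353001-88354000 in Eefsec it was 0.361 (0.200 to 0.627), from 18 and 54.15 reads. The highest, 2.55 (1.14 to 5.88), was at chr12:12927001-12928000, from 23.45 and 10 reads. In Tcra the ratio was 0.909 (0.554 to 1.45) and on chromosome 10 it was 0.889 (0.486 to 1.70). At both bins the interval included 1, unlike at Meg3. The RGM line has no knockout here.

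Within RGM, the ratio of anti-FLAG to anti-GZF1 density had a median of 0.928 over the 119 regions (0.898 to 0.962) and of 0.800 over all 38080 bins that were high in both libraries. Its interval lay below 1 in 8 of the 127 members, 6.30%, against 27.5% of those 38080 bins, and above 1 in 0, against 0.452%. Those 8 bins made 7 regions, at AU040320 and Epha8 on chromosome 4, Gm46963, Meg3, Tcra, the chromosome 10 bin and chr16:97778001-97779000. At Tcra the ratio was 0.622 (0.469 to 0.828), at Meg3 0.577 (0.396 to 0.867) and on chromosome 10 0.508 (0.362 to 0.716), while at Gm14325 it was 0.941 (0.643 to 1.46), an interval that includes 1. Because members were chosen for high values in both libraries, the choice shapes this ratio.

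By annotation, 86 of the 119 regions (72.3%) overlapped a gene, 82 of them a protein-coding one, 12 more had a gene only within 5 kb and 21 had none. Counted by bin, 90 of 127 overlapped a gene, 70.9% against 49.5% of all bins, and 85 a protein-coding gene, 66.9% against 40.7%. At an RGM limit of 3, which 14 bins passed, 42.9% of regions overlapped a gene, so the excess over all bins was not seen there. Within 5 kb of a gene lay 104, 81.9% against 58.9%. The gene table gives no exons, so exon, intron and UTR are not stated. Median GC of the promoter windows of genes within 5 kb of members was 60.8% against 53.0% over all windows. GC content of the bins themselves was not measured, and its part in the densities was not tested.

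Of 31 gene families known for similar copies or short predicted genes, few were hit. Zfp genes had 1 region, in Zfp993 (0.840% of regions, against 0.574% of bins), and predicted genes named Gm or LOC had 8 (6.72% against 9.11%). Within 5 kb of predicted genes lay 23 regions, 19.3% against 16.3% of bins, and within 5 kb of microRNA genes 4, 3.36% against 0.422%, among them Mir199a-1 in Dnm2 and Mir1906-1 in Meg3. Clones named by RIKEN had 1 overlapping region (0.840% against 2.15%). A name search for antigen receptor segments found 1 region, but its gene, Ighmbp2, encodes a helicase and is no segment, and the search did not take Tcra. No region lay in an olfactory, vomeronasal, major urinary protein, defensin, histone or Prame-like gene as named in the table. These genes cover 0.155%, 0.254%, 0.0193%, 0.0144%, 0.00954% and 0.0258% of all bins, in that order. With shares so small, a count of 0 says nothing particular about the members.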

How the data were processed

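Reads came from immunoprecipitated and input chromatin of mouse embryonic stem cells. Per the submitters' processing notes the tools were Bowtie2 2.5.4, cutadapt, deepTools and SAMtools, and the build was mm10. The deposited values are estimated counts (expected counts) of reads per 1 kb bin which, as read from the values, carry no scaling to depth and split a read that crosses a bin edge. Any filter by mapping quality or for duplicates is not given in the sources used here. Libraries held 10.1 to 94.2 M reads, and 8 of 12 were in the table.

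Each library was divided by its autosomal mean. Bins were chosen by density limits of 2.5 and 1.2, merged within 5 kb and joined to RefSeq genes (GRCm38.p6). Surroundings were medians over 500 kb on each side. Densities carry exact Poisson intervals, and ratios and shares exact binomial (Clopper-Pearson) intervals on rounded counts. With 1 library per group no test was run. The interval and selection code was tested on simulated data. Alternatives were other limits, scalings, merging distances, an input filter and other Cas9 libraries.

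The members, gene families and limits were chosen with earlier results of these data known. Named regions were the 20 with most members, the 10 highest by the lower RGM library, the 5 highest and 5 lowest in input, and the 3 on each side of every limit, 28 regions in all for the first 3 criteria, of which 1 is not reported here. Other genes and regions printed were chosen after their values were seen, as were the spans around regions, distal chromosome 4 and the sequences. Scripts ran in Python 3.11.15 with scipy 1.17.1, pandas 2.3.3 and numpy 2.4.6.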

Additional observations from a re-analysis of the deposited data

How the results depend on the processing

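The number of members depended on the limits and the scaling. Instead of 127 bins in 119 regions, an RGM limit of 2 gave 1680 bins in 1536 regions and a limit of 3 gave 14 in 14. A Cas9 ceiling of 1 gave 26 in 24 and a ceiling of 1.5 gave 844 in 769. Scaling to the autosomal median gave 228 in 218, with 64 of the members among them, and scaling to the surrounding 1 Mb, chosen after seeing the data, gave 364 in 254, with 4 of the members. Control and knockout in place of the Cas9 libraries of the rule gave 4392 in 3326, with 58 of the members. With the lines exchanged the 67 bins became 955 at a limit of 2 and 4 at a limit of 3. Among the 14 bins at a limit of 3 the median was 1.01 for H3K27ac and 1.34 in the control, the share at 2.5 or more for H3K27ac was 0%, and 42.9% of regions overlapped a gene. The cause of these shifts was not tested. Scaling to the chromosome median gave 165 bins in 158 regions but only 34 of the members, an input of 0.25 to 3 kept 120 members in 112 regions, and merging within 1 or 10 kb gave 124 or 117 regions. Of 50 values under alternatives, 30 stayed close to the reported one, but this does not measure stability. Some could hardly move, such as shares of 0 in control and knockout and values under the input filter. A count that stayed close can hold other bins, as the 165 did. No paired analysis was possible because each group has 1 library, and for the same reason no library could be left out. In RGM anti-GZF1 the limit of 2.5 is 21.5 reads and in the input 9.81, so single bins there are imprecise.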
